A study of Brassica oleracea with 7 samples.

Results

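In the cabbage species Brassica oleracea, 224 of 39481 genes had transcripts at a higher level in callus and in root than in flower bud, open flower, leaf, silique and stem. Members were chosen by their measured levels. On FPKM + 1, the lower value of callus and root had to be at least 4 times the highest of the other 5 organs, and callus and root had to lie less than 4-fold apart. FPKM divides the fragments of a gene by its length and by the size of the library, so levels can be compared between genes. The 224 genes were 0.724% of the 30945 genes that reached 1 FPKM in any tissue. These values chose the genes, so the levels below are a description, and no test was made on them.

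Poly(A)+ RNA of 7 tissues was sequenced, with 1 library per tissue and no replicate. Callus came from tissue culture, and the labels name neither the organ it was started from nor the medium. Root, leaf and stem were taken from greenhouse plants of 7 weeks, silique 15 days after pollination, bud at a length of 0.8 cm, and flowers on the day of opening. All tissues carry the same species label, with no cultivar, and the labels do not say how many plants went into a library.

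Callus is a mass of dividing cells that forms at wounds or on media with auxin and cytokinin. In Arabidopsis thaliana, callus raised on auxin-rich medium forms through a programme much like that of a lateral root, and it expresses root meristem genes even where it starts from an aerial organ. Roots lack the green tissue of the shoot. They are specialised in the uptake of water, nutrients and metal ions and in the exchange of compounds with the soil. The table pairs no gene ID with a name, so no role is given to any gene here, and the tissue labels could not be checked against marker genes.

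The intervals deposited with each FPKM gave the fragments behind it. Libraries held 8458621 (flower) to 10597573 (root) fragments in gene models. The median member rested on 263.5 fragments in callus and 368.5 in root, and no member had under 10 in either. In the other organs the median value above 0 rested on 6 (bud) to 11 (stem) fragments, so the low side of the contrast was the less precise. When every deposited lower bound in callus and root was set against every upper bound in the other organs, 130 of the 224 genes still passed the 4-fold limit. A value listed at 0 has an upper bound of 0 in the table, as did all 279 such member values in the other organs. With 3 fragments as the upper bound in their place, 123 of the 216 members with an implied coding length passed, against 124 of the 216 with the bounds as deposited. These bounds do not cover the spread between plants or cultures. In bulk tissue, fewer cells of a type and less RNA per cell cannot be told apart.

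On the deposited scaling, callus and root shared more genes than all but 1 of the 21 pairs of tissues under the same rule. Bud and open flower shared 398. The other 19 pairs shared 0 to 30 genes, led by root and stem with 30, and by bud and leaf, callus and flower, and silique and stem with 28 each. Callus shared 8 genes with bud, 6 with leaf, 6 with silique and 5 with stem. Root shared 6 with bud, 2 with leaf, 1 with flower and 1 with silique. The rank of callus and root was second as deposited and under each rescaling of the columns that was tried, with 205 genes after rescaling to equal upper quartiles, 194 after rescaling by trimmed means and 228 when scaled to the fragments in gene models. The distance to the next pair narrowed on the way, since root and stem shared 57 genes after upper quartile rescaling, 79 after rescaling by trimmed means and 31 by the fragments in gene models. Which genes they were depended more on the scaling: 165, 153 and 214 of the 224 were kept in that order.

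**Figure D1:**
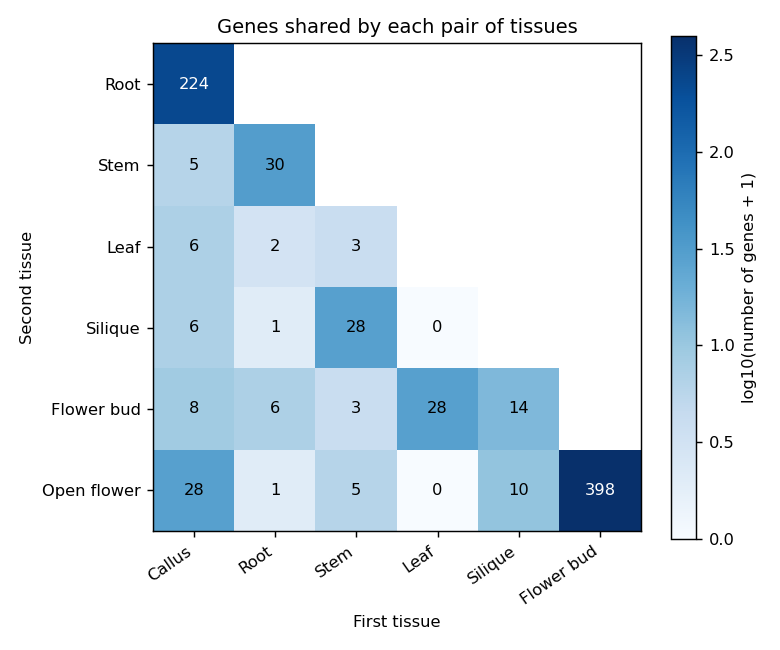
Number of genes shared by each pair of tissues under the same 4-fold rule, with the first tissue on the horizontal axis, the second on the vertical axis and colour by log10 of the number plus 1. Bud with open flower (398) and callus with root (224) hold more than the other 19 pairs, which hold 30 genes or fewer on the deposited scaling; root with stem rises to 79 after rescaling by trimmed means, where callus with root holds 194.

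The members covered a wide range of levels in callus and root. In callus they ran from 3.27 to 658 FPKM with a median of 23.0, and in root from 4.29 to 735 FPKM with a median of 24.5. The lower of both values had a median of 18.0 FPKM, reached 10 FPKM in 160 genes and 100 FPKM in 20. Together the members made up 1.69% of the FPKM summed over all genes in callus and 2.24% in root, against 0.0522% (flower) to 0.0904% (stem) in the other organs. Among the 1000 most abundant genes of a library were 21 members in callus, 37 in root and 0 in each of the other organs.

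In the other 5 organs the medians were 0.179 FPKM in flower, 0.255 in leaf, 0.274 in bud, 0.417 in stem and 0.498 in silique. The highest member values there were 26.2 FPKM in silique, 26.9 in leaf, 27.7 in bud, 31.0 in flower and 51.3 in stem. A total of 8 members were listed at 0 in all 5 organs. The numbers listed at 0 were 51 in bud (22.8%), 69 in flower (30.8%), 60 in leaf (26.8%), 45 in silique (20.1%) and 54 in stem (24.1%). Over the 25984 genes with 1 FPKM or more in callus or root, they were 3.43%, 4.34%, 5.34%, 3.36% and 4.25% in the same order.

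**Figure D2:**
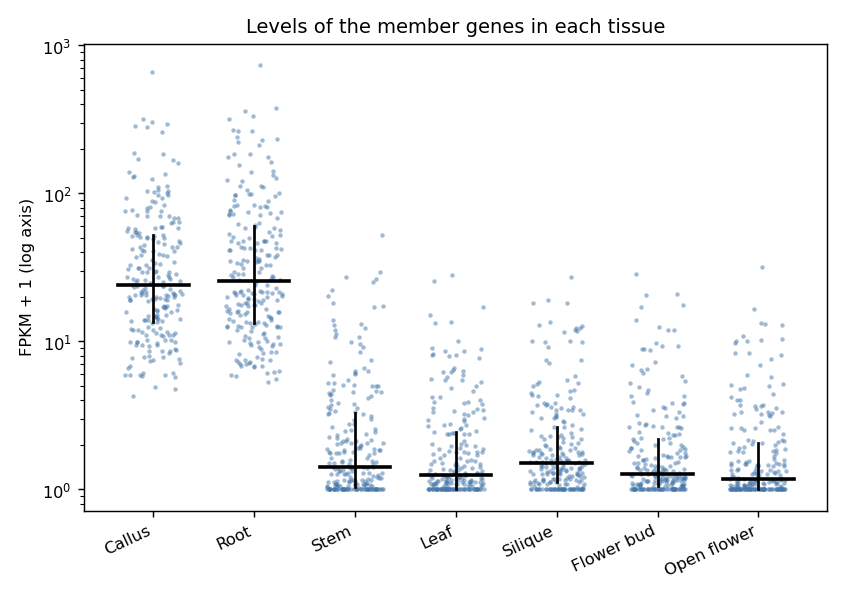
FPKM + 1 on a log axis for the 224 genes in each tissue; each point is a gene, horizontal bars are medians and vertical bars run from the lower to the upper quartile. Callus and root have medians of 23.0 and 24.5 FPKM, and the other organs have medians of at most 0.498 FPKM.

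The most abundant member by its lower value was Bol025102 (Scaffold000089, 946899 to 949567). It stood at 735 FPKM in root and 295 in callus, against 25.3 in stem, 19.7 in bud, 9.84 in flower, 8.92 in silique and 7.61 in leaf. Root was highest, and stem, the nearest organ, was 3.49 below callus on the log2(FPKM + 1) scale. Next was Bol043118 (Scaffold000006, 3899217 to 3900088), at 320 FPKM in root and 279 in callus. Its other values were 31.0 FPKM in flower, 17.2 in silique, 16.04 in stem, 7.82 in bud and 5.44 in leaf. Both genes therefore had transcripts in every organ and were members through the height of callus and root, and the flower value of Bol043118 was the highest of any member in that organ.

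The sharpest contrast on this scale belonged to Bol021035 (Scaffold000118_P2, 431682 to 432095), an intronless gene with a coding length of 414 bases. It was at 302 FPKM in callus (deposited interval 287 to 318) and 161 in root (151 to 172), on 1554 and 913 fragments, and was listed at 0 in the other 5 organs. There, 3 fragments would have been 0.523 (silique) to 0.531 FPKM (bud and stem). In callus it was the gene with rank 149 by FPKM, and in root the gene with rank 502. Bol042046 (Scaffold000008_P2, 203178 to 204755), also intronless, followed with 319 FPKM in callus and 227 in root. It was at 2.43 FPKM in silique, 1.01 in leaf, 0.275 in flower and 0.232 in bud, and was listed at 0 in stem. The lower value of callus and root exceeded that of silique by 6.06 on the log2 scale, or 5.76 from the least favourable bounds.

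Folds of this size were rare among the members. The median log2 difference between the lower of callus and root and the highest other organ was 2.69, with 75 genes at 3 or more, 25 at 4 or more and 6 at 5 or more. These 6 genes had a lower level of 55.0 to 267 FPKM. Adding 1 to FPKM holds the fold down for genes of low level: the median was 2.34 for the 64 members with a lower level under 10 FPKM, 2.74 for 113 members from 10 to 50 FPKM and 3.02 for 47 members at 50 FPKM or more.

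Outside callus and root, the members ranged from genes under 1 FPKM everywhere to genes present in every organ. In 95 members (42.4%) every other organ stayed under 1 FPKM, against 6.24% of 25984 genes with 1 FPKM or more in callus or root. Of the others, 48 reached 1 FPKM in 1 of the other organs, 21 in 2, 17 in 3, 15 in 4 and 28 in all 5. The rule asks for low values in these organs, so nothing is read from the difference between 42.4% and 6.24%. The near-silent genes had lower levels, with a median of 13.9 FPKM in callus and 11.9 in root, while the 28 broadly present genes had medians of 72.1 and 96.5 FPKM. The rule sets part of this, since it asks for higher callus and root values where another organ is higher.

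Of the 28 genes present in every organ, 23 (82.1%) were higher in root than in callus, as were 43 of the 95 near-silent genes (45.3%) and 26.9% of the 25984 genes detected in callus or root. After trimmed mean rescaling these shares were 28 of 28, 68 of 95 and 49.9%, and by the fragments in gene models 20 of 28, 39 of 95 and 23.0%. The difference between both groups of members was not tested. The rule used the callus and root values, so nothing is read from the contrast with all detected genes. On the deposited scaling, 5 of the 28 genes were 2-fold or more higher in root and 0 in callus. For the 95 genes these numbers were 15 and 20.

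Stem was the organ that most often came next. It held the highest value after callus and root in 66 members, followed by silique with 53, leaf with 48, flower with 27 and bud with 22, which leaves the 8 listed at 0. This order was the same after trimmed mean rescaling (75, 53, 40, 30 and 18) and after upper quartile rescaling (72, 52, 44, 30 and 18). A level of 1 FPKM was reached by 84 members in stem, 71 in silique, 67 in leaf, 61 in bud and 58 in flower. Over all genes with 1 FPKM or more in callus or root, 81.2% reached 1 FPKM in stem, 84.2% in silique, 83.2% in leaf, 84.5% in bud and 80.9% in flower, so stem was not the organ with the most detected genes there.

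Stem also decided membership more than any other organ. If stem did not have to be exceeded, 410 genes would meet the rule, an addition of 186. Without leaf the number was 283, without silique 264, without flower 250 and without bud 248. The 186 genes had a median of 44.5 FPKM in root, 31.4 in callus and 27.2 in stem, against 1.42 in bud, 0.749 in flower, 1.13 in leaf and 1.49 in silique. Their stem values ran from 0.183 to 618 FPKM, with 182 of the 186 at 1 FPKM or more, and 65 of the 186 still had callus and root at least 2-fold above stem. Root was above callus in 141 of the 186 (75.8%), against 26.9% of genes detected in callus or root, and in 172 (92.5%) against 49.9% after trimmed mean rescaling. Callus and root values also chose these genes, so nothing is read from these contrasts.

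The members with the highest values in the other organs were also high in callus and root, which the rule requires. Bol006704 (Scaffold000274, 536995 to 544178) was highest of all members in bud and in stem. It stood at 331 FPKM in root, 258 in callus, 51.3 in stem, 27.7 in bud, 17.3 in silique, 12.6 in leaf and 7.30 in flower. Bol031228 (Scaffold000055, 21993 to 25116) was highest in leaf and in silique, with 142 FPKM in root, 129 in callus, 26.9 in leaf, 26.2 in silique, 26.1 in stem, 16.2 in bud and 12.1 in flower. Leaf, silique and stem had overlapping deposited intervals for this gene (25.2 to 28.7, 24.5 to 27.8 and 24.4 to 27.8), so their order is not resolved by counting error.

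**Figure D3:**
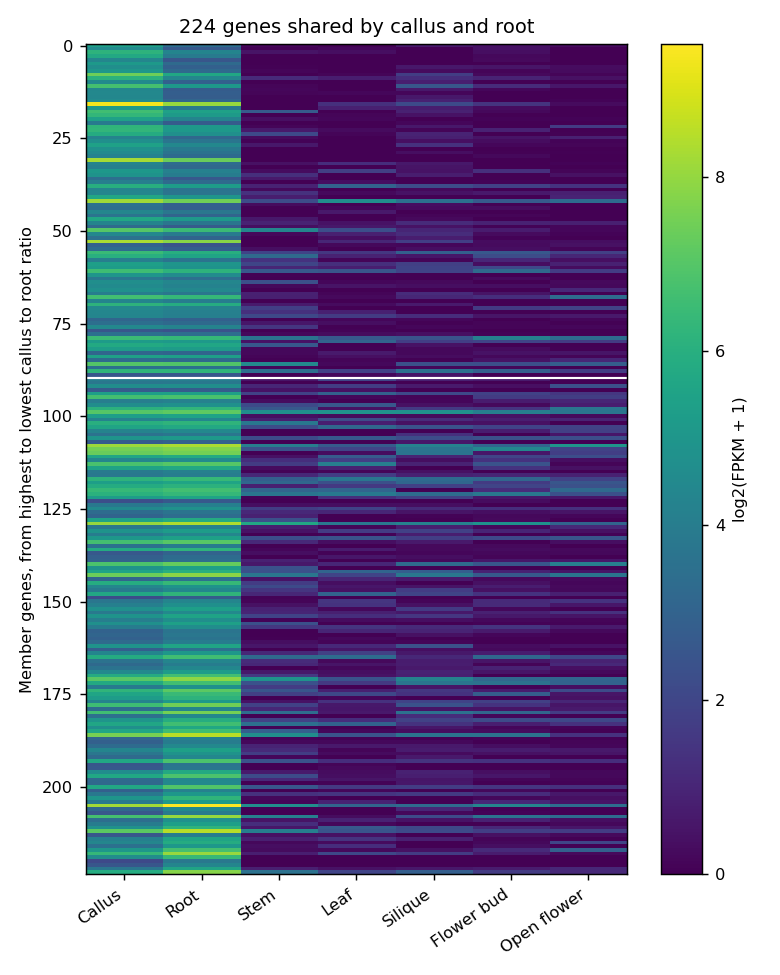
log2(FPKM + 1) of the 224 genes (rows) in the 7 tissues (columns), ordered from the highest to the lowest callus to root ratio; the white line separates 90 genes higher in callus from 134 higher in root. The bright columns are callus and root. The 28 genes at 1 FPKM or more in every other organ have a median lower level of 68.5 FPKM, and the 95 under 1 FPKM in all of them one of 8.62 FPKM. The rule asks for higher callus and root values where another organ is higher.

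Within the limit that the rule sets, callus and root were often close. Of the 224 genes, 104 were less than 1.5-fold apart on FPKM + 1 and 161 less than 2-fold. Higher values were found in root for 134 genes and in callus for 90 (40.2%), where callus was the higher in 73.1% of 25984 genes detected in either tissue. At a limit of 2-fold, 36 members (16.1%) were higher in root and 27 (12.1%) in callus, whereas of those 25984 genes 9.11% were 2-fold or more higher in root and 36.4% in callus. By counting error alone, the deposited intervals lay apart in 163 members, of which 102 were higher in root and 61 in callus, and overlapped in 61. Over the same 25984 genes, 16.1% had intervals apart with root higher and 54.2% with callus higher. The rule used these values too, so nothing is read from these contrasts.

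The balance between callus and root rested on how the columns were scaled. The median log2 difference of callus minus root was -0.21 over the members and 0.65 over all genes detected in callus or root. Trimmed mean rescaling, which brought the median of all genes to 0.00, put the members at -0.98, and upper quartile rescaling put them at -0.89 with all genes at 0.08. Per fragment in gene models, members were at -0.03 and all genes at 0.79. The median of the members lay 0.82 to 0.99 below that of all genes under the 4 scalings, and below 0 by as little as 0.03. A rescaling moves the callus to root ratio of every gene by the same amount before 1 is added. The difference from all genes was therefore nearly bound to stay alike. The rule used the callus and root values, so nothing is read from that difference. After trimmed mean rescaling, 108 members were 2-fold or more higher in root and 8 in callus. After upper quartile rescaling these numbers were 96 and 12. Per fragment in gene models the order turned round, with 26 members 2-fold or more higher in root and 36 in callus.

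Bol008879 (Scaffold000242, 737786 to 738911) had the highest callus to root ratio among members of 10 FPKM or more. It was at 69.9 FPKM in callus, 18.4 in root, 0.407 in stem, 0.271 in bud and 0.269 in leaf, and was listed at 0 in flower and silique. The log2 difference between callus and root was 1.87 (1.62 to 2.14 from the deposited bounds). Bol025295 (Scaffold000088, 628923 to 630593) followed with 53.1 FPKM in callus, 14.2 in root and 0.139 in bud, and was listed at 0 in flower, leaf, silique and stem, with a log2 difference of 1.83 (1.54 to 2.13). In both genes the next organ rested on 6 fragments or fewer.

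At the root end, Bol043072 (Scaffold000006, 3621197 to 3625703) was at 222 FPKM in root and 58.5 in callus. Its other values were 10.9 FPKM in stem, 6.47 in silique, 2.88 in leaf, 2.12 in bud and 1.15 in flower, and the log2 difference of callus minus root was -1.91 (-2.004 to -1.81 from the bounds). Bol024486 (Scaffold000092, 282960 to 286271) was at 46.4 FPKM in root, 12.5 in callus, 1.10 in flower, 0.786 in stem, 0.654 in bud, 0.516 in silique and 0.389 in leaf. Unlike the callus-leaning genes just given, these root-leaning genes had transcripts in each of the 7 libraries.

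Nearly equal levels were found in Bol038938 (Scaffold000019, 2781058 to 2782911), at 74.6 FPKM in callus and 73.8 in root. It was at 10.8 FPKM in silique, 9.76 in stem, 6.30 in bud, 2.54 in leaf and 2.31 in flower. In Bol041107 (Scaffold000012, 2473970 to 2475673) the values were 10.5 FPKM in callus and 10.3 in root, with 1 fragment each in bud, silique and stem, and it was listed at 0 in flower and leaf. The deposited intervals of callus and root overlapped in both genes. Trimmed mean rescaling moves every callus value by -0.39 and every root value by 0.41 on the log2 scale before 1 is added, so equality here is a statement about the deposited scaling.

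**Figure D4:**
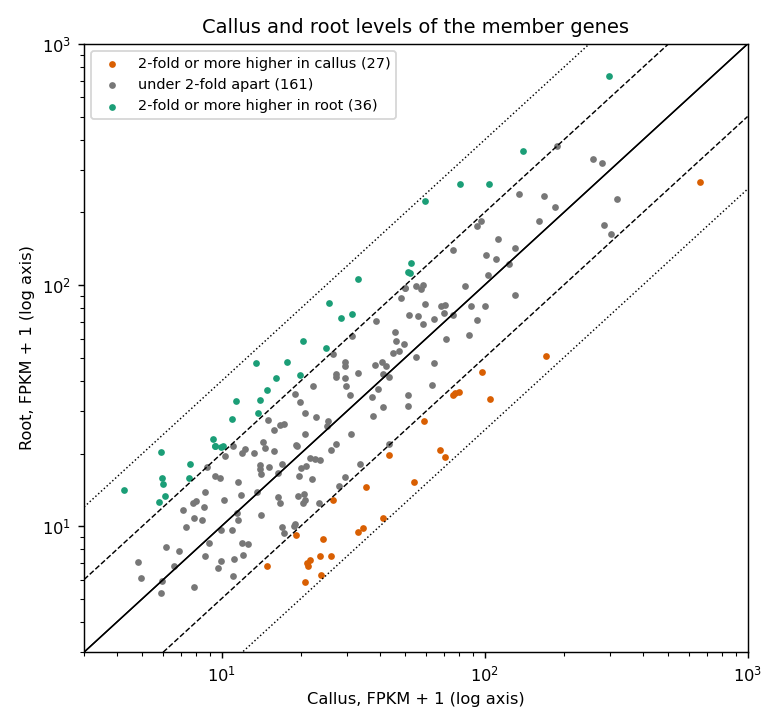
Callus (horizontal) against root (vertical) for the 224 genes, as FPKM + 1 on log axes; lines mark equality (solid), 2-fold (dashed) and 4-fold (dotted) differences. On the deposited scaling, 27 genes lie 2-fold or more to the callus side, 36 to the root side and 161 between; the 4-fold lines are the limit of the rule.

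The limits of the rule cut through a continuous range, and of the 25 members named here 8 leave the rule after upper quartile rescaling, 11 after rescaling by trimmed means and 4 by the fragments in gene models. After trimmed means these are Bol000709, Bol006704, Bol013606, Bol019908, Bol024486, Bol025102, Bol031228, Bol034779, Bol042347, Bol042348 and Bol043072. Just inside the 4-fold limit over the other organs were Bol019908 (Scaffold000127, 57914 to 58546), with a log2 difference of 2.01 to bud, and Bol005615 (Scaffold000296, 373006 to 374899), with 2.01 to stem. Bol019908 was at 5.08 FPKM in root and 3.94 in callus against 0.231 in bud, and Bol005615 at 10.02 FPKM in callus and 5.23 in root against 0.550 in stem. Both were listed at 0 elsewhere. Just outside were Bol040095 (Scaffold000015, 2978422 to 2980476), at 170.3 FPKM in callus and 64.2 in root against 15.4 in leaf with a difference of 1.99, and Bol030341 (Scaffold000060, 241064 to 248275), at 10.7 FPKM in callus and 5.58 in root against 0.669 in leaf with 1.98.

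The limit between callus and root left out 39 genes that were 4-fold above the other organs in both tissues, 17 with callus 4-fold or more over root and 22 with root over callus. Just inside it were Bol009482 (Scaffold000232, 139797 to 140461), at 40.1 FPKM in callus and 9.79 in root, and Bol019479 (Scaffold000130_P1, 180328 to 181357), at 22.9 and 5.28 FPKM. Just outside were Bol019020 (Scaffold000134, 1118521 to 1119568), at 22.3 FPKM in callus and 95.6 in root, and Bol020254 (Scaffold000124, 800246 to 802012), at 353 and 83.1 FPKM. The genes left out on the callus side had medians of 137 FPKM in callus and 12.9 in root, and those on the root side 24.1 and 191.

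Gene structure was not part of the rule. For 216 of the 224 members the fragments and FPKM implied a coding length that was a whole multiple of 3, and 32 of these (14.8%, 95% Wilson interval 10.7% to 20.2%) had a coding length equal to the locus span and are called intronless. Over all detected genes 755 of 29340 (2.57%, 2.40% to 2.76%) were intronless. The share was 9.24% in genes 4-fold or more higher in callus than in every other tissue and 6.25% in the same set for root, with Wilson intervals of 6.66% to 12.7% and 4.04% to 9.55%. For other pairs of tissues under the same rule, the share was 3 of 27 genes for silique and stem (11.1%, 3.85% to 28.1%), 2 of 29 for root and stem (6.90%, 1.91% to 22.0%), 0 of 27 for callus and flower and for bud and leaf (upper bound 12.5% each) and 0 of 379 for bud and flower (upper bound 1.003%). Intervals overlapped that of the members for the callus set, silique with stem, root with stem, callus with flower and bud with leaf. Those of the root set and of bud with flower lay below it.

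Intronless genes were unevenly listed across the 7 columns, and this touches the comparison. At 1 FPKM or more, 67 intronless genes were present in bud, 101 in flower, 139 in leaf, 168 in stem, 294 in silique, 298 in root and 361 in callus. The gene numbers in the IDs have 6361 gaps, and whether intronless genes are over-represented among the missing rows is not known. The share also fell with the bud level, which the rule used, and most members are low in bud. Among genes listed at 0 in bud, 18 of 49 members (36.7%, 24.7% to 50.7%) and 386 of 1554 detected genes (24.8%, 22.8% to 27.0%) were intronless. Above 0 and under 1 FPKM in bud, 13 of 111 members (11.7%, 6.97% to 19.0%) and 302 of 4049 detected genes (7.46%, 6.69% to 8.31%) were. At 1 FPKM or more, 1 of 56 members (1.79%, 0.316% to 9.45%) and 67 of 23737 detected genes (0.282%, 0.222% to 0.358%) were. The share was higher in the members at each of these bud levels, but the intervals of members and detected genes overlapped. Such overlap does not decide whether a higher share among the members remains over the levels together, and this was not tested. Wilson intervals treat genes as independent draws, and the part that missing rows play in these shares was not tested.

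**Figure D5:**
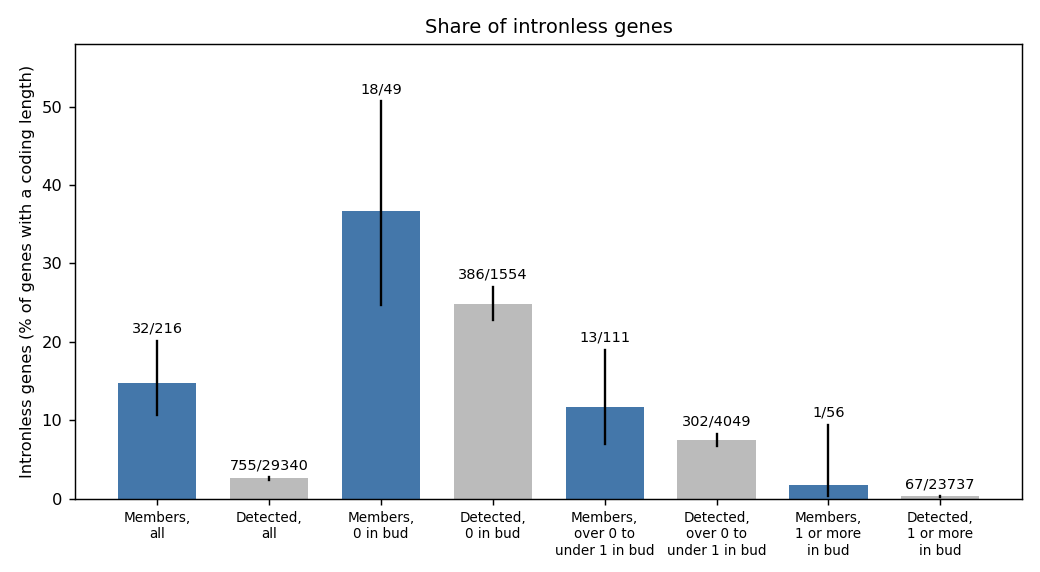
Share of intronless genes, in % of genes with an implied coding length, for members (blue) and all detected genes (grey), over all genes and split by bud level in FPKM; vertical lines are 95% Wilson intervals and the fractions give the counts. The share is 14.8% against 2.57% over all genes. At each of the 3 bud levels it is higher in the members, with overlapping intervals.

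The 32 intronless members were lower in the other organs than the members with introns. Their medians were 0 FPKM in bud and in flower, 0.0311 in leaf, 0.0260 in stem and 0.178 in silique, against 0.361, 0.249, 0.306, 0.564 and 0.564 FPKM for the 184 members with introns. In callus and root they had medians of 19.5 and 13.5 FPKM, against 24.8 and 25.9 for members with introns. Of the 32, 25 belonged to the 95 members under 1 FPKM in every other organ, and 0 to the 28 present in all of them. Low bud levels were not particular to the members. Over all 755 detected intronless genes, 386 were listed at 0 in bud and 67 reached 1 FPKM there. Among the 32 members these numbers were 18 and 1.

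The median coding length was 910.5 bases (quartiles 567 and 1398) for the members and 1005 bases (603 and 1518) over all detected genes. Among genes with introns the medians were 949.5 and 1014 bases, and among intronless genes 718.5 and 600. The longest member was Bol006034 (Scaffold000286, 37418 to 44137), with 4065 coding bases, at 16.6 FPKM in root, 14.1 in callus, 0.355 in silique, 0.0892 in leaf, 0.0721 in stem and 0.0180 in bud, and listed at 0 in flower. The next, Bol000709 (Scaffold000506, 27831 to 31812), had 3672 coding bases and was at 19.1 FPKM in root, 10.9 in callus and at most 1.26 FPKM, in stem, elsewhere.

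The shortest coding lengths were 165 bases in Bol002872 (Scaffold000372, 236620 to 237385) and 189 bases in Bol013332 (Scaffold000188, 514892 to 515182). Bol002872 was at 98.3 FPKM in root and 83.0 in callus, then 8.77 in flower, 7.91 in leaf, 7.55 in stem and 1.33 in bud, and was listed at 0 in silique. Bol013332 was at 18.7 FPKM in callus and 15.1 in root on 44 and 39 fragments and was listed at 0 in the other organs, where 3 fragments would have been 1.15 (silique) to 1.16 FPKM (stem). Short genes thus carry the weakest limit on a value listed at 0. Bol013606 (Scaffold000185, 344653 to 345199), the second most abundant of the 8 members listed at 0 in all 5 organs, was at 82.8 FPKM in root and 24.5 in callus, with 3 fragments corresponding to at most 0.419 FPKM. Its locus overlaps that of a neighbouring gene, as in 7 members in all (3.12%, against 7.02% of detected genes). The labels name no step that keeps strand, so fragments of overlapping genes cannot be told apart.

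The members were spread over 152 scaffolds, with 105 scaffolds holding a single member and at most 6 on 1 scaffold. Neighbouring rows of the table were both members in 6 cases, or 0.0245% of 24522 pairs of neighbouring detected genes, and no run was longer than 2 genes. None of the 6 pairs had overlapping loci. In 5 of the 6 pairs both genes leaned to the same side between callus and root. Over all members, 134 were higher in root and 90 in callus. The share of same-side pairs among other members was not computed, so nothing is read from this count.

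By summed level, the first pair was Bol042347 (Scaffold000008_P2, 2161542 to 2161882) and Bol042348 (2163303 to 2163650 on the same scaffold), 1420 bases apart and with coding lengths of 207 and 189 bases. Bol042347 was at 75.9 FPKM in root and 69.2 in callus, then 12.2 in flower, 5.31 in stem, 2.09 in silique, 1.77 in bud and 0.3502 in leaf. Bol042348 was at 40.2 FPKM in root, 28.5 in callus and 4.27 in stem and was listed at 0 in the other 4 organs. Both were higher in root than in callus with overlapping intervals, but they differed in flower, where the first held 35 fragments and the second was listed at 0.

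The second pair was Bol034779 (Scaffold000038, 2026171 to 2026623), intronless, and Bol034780 (2026868 to 2028067), with 244 bases between them. Bol034779 was at 75.02 FPKM in root, 30.2 in callus, 0.319 in flower, 0.162 in stem and 0.162 in bud, and listed at 0 in leaf and silique. Bol034780 was at 70.2 FPKM in root, 37.6 in callus, 0.332 in flower and 0.111 in leaf, and listed at 0 in bud, silique and stem. Root was above callus with intervals apart in both, and no other organ held more than 3 fragments of either. Whether the genes of a pair are similar in sequence, so that fragments could have been assigned to either, was not examined.

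The rows next to members were examined with a looser rule. Of 337 detected neighbours that were no members, 15 (4.45%, Wilson interval 2.72% to 7.21%) passed the same rule with a 2-fold in place of the 4-fold limit over the other organs. Of all 30721 detected genes that were no members, 503 (1.64%) did. Among the 15 neighbours, 2 overlapped the member's locus, 3 lay within 1000 bases or overlapped, and the median distance was 4226 bases. No chance level was computed for either count, and neighbouring rows can have an unlisted gene between them.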

How the data were processed

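The authors deposited 1 table of FPKM, each value with its lower and upper bounds, per the file headers, for 39481 genes in 7 tissues. The submitters' processing notes name TopHat 1.0.13. For the quantification program, the build and the annotation, nothing is stated in the labels or headers, and scaffold coordinates are those of the table with starts raised by 1. Of the gene IDs, 0 matched the RefSeq table (assembly BOL, 53125 genes).

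Fragments per value were taken as 4 times the square of FPKM over the distance to its upper bound, read as 2 SD. Of 215412 values above 0, 88.8% were whole to within 0.02 or, for large counts n, to within 3e-06 times n to the power 1.5. Coding length followed from FPKM, fragments and the column's divisor, and was kept if a multiple of 3 (35192 genes). Intronless means within 0.2% of the locus span. PCR copies are not marked, so intervals and the 3-fragment limit cover counting error only.

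The pseudocount was 1. With 1 library per tissue no p-value was computed. Columns were rescaled to upper quartiles, by trimmed means (trimming 30% by log ratio and 5% by abundance at each end) or per fragment in gene models. Named IDs are the extremes by fold, level, ratio, length, adjacency and nearness to a limit, taken from members of 10 FPKM or more for fold, level and ratio. Members, the rule and these choices were set with earlier results of these data known. Steps were tested on simulated data, with Python 3.11.15, numpy 2.4.6 and scipy 1.17.1.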

Additional observations from a re-analysis of the deposited data

How the results depend on the processing

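The number of shared genes, 224 as reported, was 512 with a pseudocount of 0.1, 727 at a 2-fold limit and 75 at an 8-fold limit. It was 410 without stem, 130 from the deposited bounds and 123 from those bounds with 3 fragments for values listed at 0. The 123 were counted over the 216 members with an implied coding length, of which 124 passed with the bounds as deposited. The number of shared genes stayed within 1.5 times of 224 under the other 13 settings tried. These ran from 160 (lower level of 10 FPKM or more) to 312 (pseudocount 0.5). Members 2-fold or more higher in callus, 27 as deposited, were 12 after upper quartile and 8 after trimmed mean rescaling. By the fragments in gene models they were 36. Those 2-fold or more higher in root, 36 as deposited, were 96, 108 and 26 in that order. Members with intervals apart, counted with no 2-fold limit, were 61 higher in callus and 102 higher in root. The share of intronless members, 14.8%, was 36.7% among genes listed at 0 in bud, 11.7% above 0 and under 1 FPKM there and 1.79% at 1 FPKM or more. The counts by next organ and of adjacent members (4 to 8) stayed within 1.5 times. Of 145 log2 differences of 29 named genes under other pseudocounts and scalings, 92 moved by less than their deposited bounds allow, 34 moved up and 19 down. Of 25 named members, 15 left the rule under at least 1 of the 3 rescalings. The settings by bud level, by 3 fragments for values listed at 0, by rescaled columns within the 28 broadly present and the 95 near-silent members, by intervals between callus and root and by adjacency without intronless genes were chosen after seeing the data. The causes of these shifts were not tested. No paired analysis was possible because there are no replicates and no tests.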
